A study of Mus musculus with 6 samples.

Results

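The 300 probes described here gave the brightest oocyte signal on the arrays among probes that also lit up in the reference RNA. Of 42006 probes of 60 bases each, 19308 were marked well above background in both dye channels on all 6 arrays, and these were ranked by the mean over the 6 arrays of the log2 oocyte (Cy3) signal. The top 300, or 0.714% of the probes, are the members. The members were chosen by their measured Cy3 signal, so that their brightness is a description and was not tested. The requirement of reference signal removed 0 probes from the top 300, since the brightest probe without it on every array stood at rank 799. The files pair no probe with a gene, so that the members are named by their array identifiers and counts are of probes, of which several can belong to 1 transcript.

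A growing oocyte stores messenger RNA that it will translate later, during meiotic maturation and after fertilisation, when its own transcription has stopped. In antral oocytes, which lie in follicles with a fluid-filled cavity, transcription ends as the chromatin condenses into a ring around the nucleolus. Transcripts that are abundant in both an oocyte and cultured cells commonly serve functions that every cell uses, while a transcript that an oocyte stores for itself is expected to be faint in other cells.

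The series compared antral mouse oocytes sorted by chromatin with the DNA dye Hoechst. SN pools (surrounded nucleolus) held 50 oocytes each, NSN pools (non-surrounded nucleolus) held 41 and 44, and pools labelled only as oocyte held 10 each, with 2 pools in every group. The protocol speaks of mice 39 weeks old, both wild type and Mater tm/tm (a mutant of a maternal-effect gene), and does not say which pools came from which genotype. The sample characteristics call all 6 samples embryonic stem cells at the embryo stage, whereas titles and descriptions call them oocytes, and the titles were followed. Without gene names the label could not be checked against oocyte markers. Whether pools of 1 group were drawn from different animals is not stated, so p-values here reflect pool-to-pool spread that may be technical. Cy3 carried the oocyte RNA, linearly amplified in 2 rounds, and Cy5 carried a reference that was the same on every array. That reference was made of 2 parts RNA from a pool of 11 mouse cell lines and 1 part RNA from embryonic stem cells. The dyes were never swapped, so a probe's dye effect is part of each of its ratios.

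All 4 SN and NSN arrays lay on a single slide and each oocyte array on a slide of its own, so group and slide cannot be told apart in a comparison with the oocyte pools. The same holds for pool size, at 10 oocytes in the oocyte pools against 41 to 50 in the others. Between 22010 and 29780 probes per array were well above background in Cy3, and 28667 to 29984 in Cy5. The mean Cy3 intensity was 2110 and 1417 on the oocyte arrays and lay between 4719 and 5361 on the other 4. No spot of a probe was saturated. Where the bright reading of a spot was too strong the scanner software had used a dim reading scaled up. It did so for all 300 members on each SN and NSN array and for 283 and 263 on the oocyte arrays.

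Several of the brightest members read the same or a related sequence, which is shown first because counts of probes are not counts of transcripts. By local alignment of every pair of members, with at least 30 aligned columns and at least 78% of them identical, 24 members fell into 10 families and 276 into none. All 16 aligned pairs lay on the same strand, and 0 on opposite strands. The thresholds of this alignment were chosen after the sequences were seen. The largest family held 6 members, between rank 2 and rank 90. Their sequences follow, 5′ to 3′, with capitals for the run that Z00049548-1 shares exactly with Z00060645-1 (40 bases), and in Z00048618-1 for the 20 bases it shares exactly with Z00049548-1.
Z00049548-1: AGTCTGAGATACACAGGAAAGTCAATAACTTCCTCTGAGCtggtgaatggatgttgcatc
Z00060645-1: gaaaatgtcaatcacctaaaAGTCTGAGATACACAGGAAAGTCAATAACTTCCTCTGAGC
Z00048618-1: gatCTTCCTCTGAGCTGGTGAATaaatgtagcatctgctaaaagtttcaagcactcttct
Z00025999-1: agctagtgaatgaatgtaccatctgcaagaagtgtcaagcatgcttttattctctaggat
Z00030722-1: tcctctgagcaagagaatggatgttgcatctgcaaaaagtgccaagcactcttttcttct
Z00077066-1: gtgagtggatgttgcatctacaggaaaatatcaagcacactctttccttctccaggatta
Z00030722-1 and Z00048618-1 matched at 44 of 53 columns. Among all remaining probes of the array, 1 same-strand relative was found at this threshold, Z00007933-1, which matched Z00030722-1 at 49 of 60 columns. On the reverse strand 5 other probes, none of them members, were related to the family over shorter stretches of 31 to 33 columns.

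A further pair of members overlapped by 45 bases, in capitals. It is shown because both probes fell from the oocyte pools to the SN and NSN pools in each of the 16 or 17 settings run for them.
Z00007165-1: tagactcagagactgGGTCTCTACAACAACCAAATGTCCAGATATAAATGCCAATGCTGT
Z00058943-1: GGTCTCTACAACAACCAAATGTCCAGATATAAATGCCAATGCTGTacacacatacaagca
In all, 12 pairs of members shared an exact run of at least 20 bases, and 23 members took part. Such pairs give a check of the measurement within these arrays. The difference between groups, on the log2 ratio scale, departed between the probes of a pair by a median of 0.09 for NSN minus SN, 0.13 for SN minus oocyte and 0.12 for NSN minus oocyte. The widest gap of the 12 pairs was 0.98, for NSN minus oocyte, between Z00075076-1 and Z00034889-1, which share 46 bases. A further 6 pairs joined a member with a probe outside the list, and some departed more. Z00011746-1 and Z00068070-1 share 39 bases and departed by 1.02 for SN minus oocyte and 1.31 for NSN minus oocyte. Z00043969-1 and Z00058174-1 share 20 bases and differed in sign for SN minus oocyte, at 0.53 and -0.42. In the remaining pairs of this kind the widest gap was 0.42.

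Members that results below turn on, and that belong to no family, read as follows. The first was the brightest of all, the next pair rose most in the ratio to the reference from the oocyte pools to the SN and NSN pools, and the last pair fell most in that ratio.
Z00074674-1: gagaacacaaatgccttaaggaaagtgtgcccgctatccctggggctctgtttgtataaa
Z00074552-1: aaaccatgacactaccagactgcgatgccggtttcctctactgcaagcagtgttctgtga
Z00070492-1: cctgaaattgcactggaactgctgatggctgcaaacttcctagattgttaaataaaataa
Z00073875-1: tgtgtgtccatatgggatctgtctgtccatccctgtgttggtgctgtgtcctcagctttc
Z00036470-1: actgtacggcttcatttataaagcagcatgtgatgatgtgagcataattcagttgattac

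Levels are given as the log2 of the processed signal minus the array's own 75th percentile, so that 0 is the level which 75% of the array's probes stay under. Signal also depends on how well a probe binds, so a level compares arrays for 1 probe and not transcripts with each other. The brightest member, Z00074674-1, had Cy3 levels of 9.60 and 10.20 in oocyte, 7.72 and 7.86 in SN, and 7.95 and 7.77 in NSN. Next came Z00049548-1 of the largest family, at 9.90 and 9.96 in oocyte, 7.68 and 7.85 in SN, and 7.81 and 7.66 in NSN. On this scale both were higher on the oocyte arrays and their SN and NSN values overlapped. In quantile-normalised Cy3, where every array is given the same distribution, SN differed from oocyte by -0.03 for Z00074674-1 and by -0.28 for Z00049548-1, and limma called neither (adjusted p = 0.869 and 0.159). Both probes ranked between 1 and 10 by Cy3 on every array, and this method gives probes of like rank like values. It could therefore not show a large difference for them, and the missing calls do not mean equal levels. At the other end of the list, rank 299 (Z00007692-1) stood at 7.70 and 7.91 in oocyte, 5.79 and 5.63 in SN, and 5.81 and 5.59 in NSN. Rank 300 (Z00074734-1) was nearly level over the groups, at 6.48 and 6.81, 6.30 and 6.15, and 6.39 and 6.29 in the same order.

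The edge of the list is not a gap in the data. Mean log2 Cy3 signal was 17.70 at rank 296 and 17.69 at rank 300, against 17.68 for Z00050334-1 and Z00022377-1, the next probes in the ranking. Both of those were fainter on the oocyte arrays than on the other 4, with Z00050334-1 at 15.99 and 15.52 against 18.49 to 18.83. The average over arrays, in which 4 of 6 are SN or NSN, hides such differences.

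Only 94 members were among the 300 brightest probes on all 6 arrays, ranked array by array among the probes well above background in both channels, and 8 were so on 0 arrays. On both oocyte arrays 200 members ranked that high, and on all 4 SN and NSN arrays 158 did. The list mixes 79 members that reached the top 300 on both oocyte arrays and on none of the others with 56 that reached it on all 4 SN and NSN arrays and on no oocyte array. The lowest rank of a member was 2665 and 2673 on the oocyte arrays, both times Z00074552-1, and between 829 and 1044 on the other 4.

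The members took a larger share of the Cy3 signal on the oocyte arrays. They held 38.2% and 41.3% of the summed Cy3 signal in oocyte, 20.4% and 21.2% in SN, and 21.5% and 20.4% in NSN, so the oocyte arrays lay apart and SN overlapped NSN. Median Cy3 levels over the 300 members were 7.63 and 7.75 in oocyte, 6.66 and 6.74 in SN, and 6.77 and 6.62 in NSN. The SD of the Cy3 level over members was 1.00 and 1.08 on the oocyte arrays and 0.52 to 0.55 on the others. Members were chosen by a mean Cy3 signal in which most arrays are SN or NSN. That choice can by itself narrow the spread on those arrays more than on the oocyte arrays, so nothing is read from this difference. Between the arrays of a group a member's Cy3 level differed by a median of 0.17 in oocyte, 0.14 in SN and 0.14 in NSN. The Cy5 channel, which held the same reference RNA on every array, moved in the same direction. Members held 4.60% and 4.65% of its signal on the oocyte arrays and 3.24% to 3.55% on the others, with median Cy5 levels of 4.75 and 4.69 against 3.76 to 3.90. How far such differences between arrays enter the Cy3 levels was not tested.

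Against the reference, most members were brighter in oocyte RNA, by an amount that varied widely. The log2 ratio of Cy3 over Cy5, normalised within each array by loess, had medians over members of 2.16 and 2.64 in oocyte, 2.23 and 2.25 in SN, and 2.07 and 2.06 in NSN. The ratio was above 0 on all 6 arrays for 236 members (78.7%), below 0 on all 6 for 19, and of both signs for 45. Among all 19308 eligible probes 42.8% were above 0 on all arrays, but Cy3 brightness chose the members and is the numerator of this ratio, so nothing is read from that difference. The mean ratio over arrays reached 1 in 217 members, 2 in 165, 4 in 76 and 8 in 12. Among the 19308 eligible probes ranked by Cy5, 23 members were in the top 300 on each oocyte array, and 4 to 6 on each of the others. The members' median Cy5 rank was 1485 and 1515.5 on the oocyte arrays and 2314.5 to 2478.5 on the others. Most members thus ranked high in the reference without being among its brightest probes.

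The probe with the highest mean ratio was Z00009537-1, with ratios of 11.16 and 11.41 in oocyte, 10.01 and 10.07 in SN, and 10.10 and 9.98 in NSN. Its Cy5 level was between -5.82 and -3.68, although marked well above background on every array. The next was Z00025999-1 of the largest family, at 11.36 and 11.74, 9.57 and 9.60, and 9.45 and 9.37 in the same order. Of the 12 members with a mean ratio of at least 8, 5 belonged to that family. Its remaining member, Z00077066-1, had a mean ratio of 5.44 and Cy5 levels between 1.07 and 3.34.

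At the low end, Z00072976-1 had ratios of -4.11 and -3.72 in oocyte, -2.31 and -3.17 in SN, and -3.25 and -3.77 in NSN. This probe was the brightest of all eligible probes in Cy5 on both oocyte arrays and bright in Cy3 as well. Z00031546-1 followed at -4.94 and -4.50 in oocyte, -2.44 and -2.43 in SN, and -2.53 and -2.25 in NSN. Its Cy3 level rose from 5.57 and 6.04 in oocyte to 7.35 and 7.27 in SN and 7.20 and 7.31 in NSN, with no overlap between oocyte and the other groups. The steadiest ratios over the 6 arrays were those of Z00074674-1, which stayed between 6.98 and 7.17 with an SD of 0.0695, and of Z00013213-1, which stayed between 3.41 and 3.70 with an SD of 0.101. In both, Cy3 and Cy5 levels were each higher on the oocyte arrays: the SN minus oocyte difference in mean level was -2.11 in Cy3 and -1.88 in Cy5 for Z00074674-1, and -1.82 and -1.37 for Z00013213-1.

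Differences from the oocyte pools went in both directions among the members. In limma's fit of the log2 ratio over all tested probes, with an adjusted p under 0.05 as a call, 89 of the 300 members were higher in SN than in oocyte and 88 were lower. Of all 29044 tested probes 26.3% were called higher and 35.3% lower, against 29.7% and 29.3% of the members. The members' shares are thus near those of all tested probes. For NSN against oocyte 72 members were called higher and 105 lower, or 24% and 35%, beside 25.4% and 35.3% of the 29045 probes tested. In the limited fit 74 members were called higher and 114 lower in NSN, and of its 19308 probes 14015 were called, 5079 of them higher. All 300 members passed the filter on low signal in these fits. The median difference over members was -0.09 for SN minus oocyte, as it was for all tested probes, and -0.27 for NSN minus oocyte, beside -0.11 for all. Over the probes of the limited fit the medians were -0.35 and -0.36. Without oocyte replicate 1 the SN median was -0.30 and without oocyte replicate 2 it was 0.15, and the NSN medians were -0.53 and -0.03. The sign of the SN median thus turned with a single oocyte array. Differences of at least 4-fold were called higher for 21 members in SN and 16 in NSN (background 9.93% and 9.24%) and lower for 4 and 10 (5.91% and 5.08%). These 2 comparisons share the oocyte arrays.

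The balance of calls turned with the processing. With each array's ratios only centred on their median, 165 members were called higher and 9 lower in SN (background 45.3% and 8.43%), and 129 and 15 in NSN (40.6% and 8.84%). With a smaller offset in the background correction the counts were 154 and 43 in SN (26.9% and 35.3%) and 130 and 50 in NSN (25.5% and 34.7%). Cy3 alone, made alike in distribution by quantile normalisation, gave 77 higher and 139 lower in SN (26.9% and 33.4%) and 77 and 135 in NSN (25.9% and 32.4%). Cy3 levels as defined above gave 35 and 205 in SN (26.8% and 36.2%) and 34 and 203 in NSN (26.2% and 35.4%). The same levels after normexp correction, a setting added after the data were seen, gave 39 and 222 in SN (20.8% and 65.1%) and 40 and 218 in NSN (20.3% and 64.7%). A single oocyte array turned the balance as well. Without oocyte replicate 1, 71 members were called higher and 113 lower in SN (23.4% and 31.8%) and 63 and 139 in NSN (22.6% and 31.2%). Without oocyte replicate 2 the counts were 103 and 60 in SN (22.9% and 31.7%) and 87 and 73 in NSN (21.9% and 30.8%). Whether more members were called higher or lower than in the oocyte pools was therefore not settled by these arrays.

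The reference channel itself differed between these arrays for most members. In Cy5 alone, 24 members were called higher and 254 lower in SN than in oocyte by limma, beside 10.1% and 22% of the tested probes, with a median difference of -1.07 against -0.14 over all tested probes. On the NSN arrays 26 were called higher and 248 lower (10.6% and 22.5%), with a median of -0.99. After quantile normalisation of Cy5, 32 were still called higher and 162 lower in SN (8.65% and 9.76%), with a median of -0.35. No oocyte RNA was labelled with Cy5, and these differences enter every ratio. Of the 89 members called higher in SN by the ratio, 51 were also called higher by quantile-normalised Cy3 and 12 were called lower. Of the 88 called lower, 58 were also called lower and 19 were called higher. For NSN the counts were 45 and 7 of 72 called higher, and 71 and 21 of 105 called lower. Such counts were not made over all tested probes, so nothing is read from them about the members as a set.

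A small set kept its call in every setting run for it, replicates left out included. In SN these were 22 members called higher and 7 called lower than in oocyte, and in NSN 19 and 9. The same count was not made over all tested probes, so these numbers do not set the members apart from other probes. Of these 29 and 28 members, 6 in each comparison are not in the authors' table and were run in 16 settings, and the others in 17. This set was picked after the values were seen and serves only to name members whose direction did not hang on a setting. The steepest in the ratio was Z00074552-1, whose Cy3 levels were 4.08 and 4.09 in oocyte, 7.54 and 7.70 in SN, and 7.66 and 7.52 in NSN. Its rank by Cy3 went from 2665 and 2673 on the oocyte arrays to between 16 and 21 on the others. The Cy5 levels of the same probe ran the opposite way, at 5.13 and 4.96 in oocyte and between 2.25 and 2.53 elsewhere. On the log2 ratio scale it rose by 6.31 ± 0.17 (SE) in SN and by 6.07 ± 0.17 in NSN (limma adjusted p = 1.58e-05 and 1.89e-05), and in Cy3 levels alone by 3.53 and 3.50. The remainder of the ratio's rise came with the fall of its reference signal.

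Z00070492-1 also rose in all 17 settings, mostly through its Cy5 signal. Its Cy3 levels were 6.04 and 6.17 in oocyte, 6.76 and 6.96 in SN, and 6.92 and 6.78 in NSN, while its Cy5 levels were 5.95 and 5.80 in oocyte and 2.79 to 2.83 on the other arrays. The ratio rose by 4.01 ± 0.20 (SE) in SN and 3.89 ± 0.20 in NSN (limma adjusted p = 2.81e-05 and 3.47e-05), against 0.76 and 0.75 in Cy3 levels. Other members that rose in every setting run for them in both comparisons included Z00011746-1, by 3.82 and 3.89 in the ratio and by 2.57 and 2.66 in quantile-normalised Cy3, and Z00030899-1, by 3.55 and 3.35, and 3.38 and 3.17. The probe Z00068070-1, outside the list, shares 39 bases with Z00011746-1 and rose less in the ratio, by 2.80 and 2.58.

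Among the members that fell in every setting run for them in both comparisons, Z00025999-1 changed most in the ratio. Its Cy3 levels were 9.69 and 10.15 in oocyte, 7.23 and 7.39 in SN, and 7.39 and 7.25 in NSN. Its ratio fell by 1.97 ± 0.17 (SE) in SN and by 2.14 ± 0.17 in NSN (limma adjusted p = 0.000164 and 0.000134), and the Cy5 levels, at -2.95 and -2.78 in oocyte and -3.50 to -3.16 elsewhere, moved less. The overlapping probes shown above fell alike. Z00007165-1 had Cy3 levels of 8.93 and 8.86 in oocyte, 6.39 and 6.65 in SN, and 6.68 and 6.53 in NSN, and its ratio fell by 1.60 in SN and 1.62 in NSN. Z00058943-1 stood at 8.63 and 8.99, 6.09 and 6.35, and 6.41 and 6.27 in the same order, with falls of 1.52 and 1.45. Adjusted p in limma was between 0.000376 and 0.000529 for these 4 differences. Both probes read the same bases, so they count as 1 observation.

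The largest falls of the ratio do not belong to that set. Z00073875-1 had ratios of 4.62 and 4.88 in oocyte, 2.06 and 2.25 in SN, and 1.82 and 1.76 in NSN, differences of -2.60 and -2.96 (limma adjusted p = 5.24e-05 and 4.02e-05). Yet its Cy3 levels were higher in SN and NSN, at 7.47 to 7.88 against 5.20 and 5.67 in oocyte, and its Cy5 levels rose further, from 0.05 and 0.24 to between 4.30 and 4.85. The ratio therefore fell while the oocyte signal rose, and quantile-normalised Cy3 gave rises of 3.57 and 3.51. Z00036470-1 showed the same pattern, with ratio differences of -2.55 and -3.06 (limma adjusted p = 0.00024 and 0.000137). Its Cy3 levels were 6.29 and 6.31 in oocyte, 6.62 and 6.90 in SN, and 6.89 and 6.74 in NSN. Its Cy5 levels were 0.81 and 0.45 in oocyte and 3.35 to 4.06 elsewhere. For both probes the direction differs between the ratio and Cy3 alone, so no direction is given for their oocyte RNA.

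Within the largest family, 5 of the 6 members were called lower in the ratio in SN than in oocyte (background 35.3%), with differences of -1.97 to -0.96. Their sequences overlap or are related, so they do not count as 6 observations. In at least 1 setting the sign turned for Z00049548-1 (up to 0.09), Z00030722-1 (up to 0.22) and Z00048618-1 (up to 0.48). Z00077066-1 differed by 0.20 ± 0.30 (SE, adjusted p = 0.595 in limma) and was not called. In quantile-normalised Cy3, Z00030722-1 and Z00048618-1 differed by 0.15 and 0.41. Of the 6 members Z00025999-1 and Z00060645-1 alone were called lower there, at -0.92 and -1.23 (background 33.4%).

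No member passed the test between SN and NSN. limma called 0 of 300 members in NSN against SN, as it called 0 of all 28429 tested probes (0%), and the smallest adjusted p of a member was 0.224. At an unadjusted p under 0.05 there were 24 members, beside 10.9% of all tested probes, and with no filter on low signal there were 46, beside 9.59%. The median difference of the Cy3 level was -0.0004, the middle 50% of members lay between -0.04 and 0.07, and the extremes were -0.56 and 0.41. With 2 arrays a group, this leaves room for differences, and not only for small ones. The 95% interval of the ratio difference of Z00074674-1, the brightest member, ran from -0.37 to 0.30, and that of Z00072955-1 from -0.77 to 0.06. Z00078093-1 differed by -1.40 in the ratio and was not called (limma adjusted p = 0.403).

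In the ratio, by contrast, the members leaned one way. The median difference was -0.18 for members and 0.03 for all tested probes, and in 180 members both NSN arrays lay below both SN arrays, while in 2 both lay above (background 20.1% and 24.3%). In Cy3 alone 23 members lay apart and lower and 30 apart and higher (15.8% and 26.5%). In Cy5 alone 138 lay apart and higher and 10 apart and lower (22.5% and 20.9%), with a median difference of 0.09. Over all tested probes the median difference was 0.08 in Cy3, against -0.0004 for the members, and 0.0005 in Cy5, so that relative to other probes the members were lower in Cy3 by about as much as they were higher in Cy5. After quantile normalisation the members' median Cy5 difference was 0.03. No member was called in any setting run, which were 17 for the 242 members in the authors' table and 16 for the others.

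The smallest p-values belonged to Z00077273-1 and Z00078095-1. The ratio of Z00077273-1 was 1.37 and 1.25 in SN and 0.43 and 0.63 in NSN, a difference of -0.78 ± 0.14 (SE, limma adjusted p = 0.224). Its Cy3 levels were 6.33 and 6.46 against 6.30 and 6.13, and its Cy5 levels 4.30 and 4.47 against 4.97 and 4.72. The ratio of Z00078095-1 was 1.03 and 0.41 in SN and -0.64 and -0.50 in NSN, a difference of -1.29 ± 0.24 (limma adjusted p = 0.229). Here the Cy3 levels overlapped, at 6.95 and 7.11 against 6.98 and 6.82, and the Cy5 levels rose from 4.95 and 5.58 to 6.30 and 6.07. The only members with both NSN arrays above both SN arrays were Z00073980-1 and Z00006946-1, by 0.12 and 0.10 (limma adjusted p = 0.769 and 0.797). In Cy3 levels alone Z00006946-1 differed by -0.02, with the sign turned.

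Several of the larger ratio differences came from probes whose array identifiers lie next to each other, a pattern noticed after the values were seen. Between Z00078091-1 and Z00078103-1 there are 13 consecutive identifiers, of which 5 are members, Z00078091-1 and Z00078093-1 to Z00078096-1. A further member, Z00063742-1, shares 58 bases with Z00078096-1, in capitals.
Z00078096-1: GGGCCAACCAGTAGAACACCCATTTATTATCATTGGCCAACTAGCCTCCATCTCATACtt
Z00063742-1: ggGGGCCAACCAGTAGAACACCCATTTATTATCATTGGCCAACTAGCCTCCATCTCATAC
These 6 members differed between NSN and SN by -1.40 to -0.78 in the ratio, by -0.56 to -0.13 in Cy3 levels and by 0.43 to 0.92 in Cy5 levels, with adjusted p in limma between 0.229 and 0.403. The 8 probes of the run that are not members also had lower ratios in NSN, with differences of -0.95 to -0.42, of -0.88 to -0.09 in Cy3 levels and of -0.14 to 0.55 in Cy5 levels. Among them Z00078098-1 differed by -0.88 in Cy3 and 0.01 in Cy5, and Z00078092-1 by -0.76 and -0.03, so the lower ratio did not always come with a higher reference signal. The Cy5 levels of the 6 members were 7.70 to 9.20 on the oocyte arrays and 4.34 to 7.71 on the other 4, so that the reference signal of these members varied between arrays more than their oocyte signal, which lay between 5.69 and 7.89 throughout.

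The members' sequences were somewhat poorer in G and C than those of other probes. Their median GC content was 41.7%, against 45% among all eligible probes and 43.3% over the whole array, and T made up 32.2% of their bases against 28.3% and 27.9%. The hexamer AATAAA, the form of the polyadenylation signal that lies near the 3′ end of many messenger RNAs, occurred as read 5′ to 3′ in 38 members (12.7%), against 8.72% of eligible and 6.93% of all probes. Its reverse complement, TTTATT, occurred in 7% of members against 3.24% and 3.36%. The form ATTAAA was as frequent as elsewhere, at 3.33% of members, 3.63% of eligible probes and 3.19% of all, and its reverse complement TTTAAT occurred in 3.33%, 2.27% and 2.30%. The U-rich element TTTTAT, which in its RNA form is bound by a protein that controls polyadenylation in the cytoplasm, occurred in 6.67% of members, 3.40% of eligible and 3.34% of all probes. Its reverse complement ATAAAA stood at 7%, 4.23% and 4.08%. ATAAAA can overlap AATAAA by several bases, and TTTTAT can overlap TTTATT in the same way. The octamer TGTAAATA, a sequence bound by Pumilio proteins, was read in 3 members, or 1%, against 0.528% and 0.400%. AATAAA and TTTTAT were more frequent in the members on both strands, with no test made. The members also had more T, and a match within 60 bases is no evidence of a functional site.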

How the data were processed

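Scanner files of 6 2-colour arrays were used. They were made with Agilent Feature Extraction 9.5.1.1, per the file headers, and hold the intensity of each spot in both channels, raw and as processed by the authors' software, which removed background and balanced the dyes. Per the file headers the deposited log10 ratio divides Cy5 by Cy3; here the sign was reversed. Where an array had 2 scan files, the one with the larger total signal was used. The authors' deposited table of log10 values (25030 probes, 242 members) served as an alternative; its centring and choice of probes are unknown, and values under 2 were raised to 2.0, as the labels describe. Its columns followed the log10 Cy3 signal (r between 0.9938 and 0.9977 over probes) and had medians of 2.48 and 2.44 in oocyte, 2.57 and 2.56 in SN, and 2.55 and 2.57 in NSN. Between groups, however, its differences lay near those of the deposited ratio and not those of Cy3. The members' median for SN minus oocyte was -0.03 in this table, 0.02 by the deposited ratio and -1.17 in Cy3 levels. For Z00073875-1 the same differences were -1.98, -2.01 and 2.24. The table is therefore not read as a Cy3 measure.

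Intensity was corrected by normexp with offset 50, and log2 Cy3/Cy5 ratios were loess-normalised within arrays in limma 3.58.1 (R 4.3.3), with controls and uneven spots at weight 0. Probes whose Cy3 signal was well above background on 2 or more arrays of a fit were tested two-sided by limma's linear model, with Benjamini-Hochberg adjustment over all of them and adjusted p under 0.05 as a call. NSN against SN used 4 arrays, the other comparisons all 6. The script was tested on simulated data. The alternatives were other normalisations, Cy3 alone, another scan, other filters, blocks by replicate number or slide, and each replicate left out. Replicate numbers were not taken to pair arrays, since deviations correlated at 0.21 (SN and NSN), -0.02 (oocyte and SN) and 0.15 (oocyte and NSN).

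The members and every list, rule and threshold were chosen with earlier results of these data known. Named probes are the brightest and lowest-ranked 2 members, the next 2 outside the list, the 2 highest and lowest ratios, the 2 smallest SDs, and per comparison and direction the 2 called members with the largest difference whose arrays did not overlap, filled by the smallest p. Others are named where said to be picked after their values were seen. Planned lists of genes were not used, since no table paired probes with genes. Alignments used Biopython 1.88.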

Additional observations from a re-analysis of the deposited data

How the results depend on the processing

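No member was called for NSN against SN in any setting (17, of which the authors' table covers 242 members), and the counts called against the oocyte pools stayed within 1.5 times the reported ones in all settings, while their split by direction did not, as reported above. Without single replicates 132 to 184 members were called for SN and 142 to 202 for NSN. With the replicate block the counts were 177 for SN, 178 for NSN and 0 for NSN minus SN, so no count changed by over 1.5 times. With the slide as a random block they were 171 and 173.

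The members' median difference moved by more than the spread between replicate arrays in these settings. For NSN minus SN (-0.18 as reported) it was -0.00040 in Cy3 levels, 0.014 in quantile-normalised Cy3, 0.050 in Cy3 levels after normexp (added after the data were seen), -0.10 with the deposited log ratio, -0.20 with the other scan and -0.090 with the authors' values, and -0.21 to -0.16 without single replicates. For SN minus oocyte (-0.09) it was 0.66 with median centring, 0.53 with offset 16, -0.37 in quantile-normalised Cy3, -1.17 in Cy3 levels and -1.48 in Cy3 levels after normexp. For NSN minus oocyte (-0.27) it was 0.44, 0.34, -1.13 and -1.42 with median centring, offset 16, Cy3 levels and Cy3 levels after normexp, and -0.53 to -0.031 without single replicates.

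Of the named probes, Z00073875-1 turned to 0.53 with median centring, 2.24 in Cy3 levels, 3.57 in quantile-normalised Cy3 and 2.90 after normexp for SN minus oocyte, and to 0.23, 2.26, 3.51 and 2.99 for NSN minus oocyte. Z00036470-1 turned to 0.47 in Cy3 levels, 1.45 in quantile-normalised Cy3 and 1.02 after normexp in SN, and to 0.52, 1.51 and 1.11 in NSN. Z00006946-1 turned to -0.017 in Cy3 levels for NSN minus SN. The cause was not tested for any of these.

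The list itself kept 298 of its 300 probes with the other scan, 285 with normexp and 300 when Cy5 detection was not required, 208 when the median over arrays replaced the mean, and 258 to 286 without single arrays. Cy5 calls for SN minus oocyte were 278 as reported and 194 after quantile normalisation. Precision is limited by 2 arrays a group, and the oocyte arrays share no slide with the others. Whether the dim reading behind most members' Cy3 values affects their spread was not tested.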
